A study of Mus musculus with 14 samples.

Results

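Lipoproteins carry cholesterol and other lipids between cells, and lipid droplets store neutral lipids inside them. The 10 genes described here, chosen by name, are 4 apolipoprotein genes (Apoe, Apoc1, Apod and Clu), the lipoprotein lipase gene Lpl, 3 perilipin genes (Plin2, Plin3 and Plin4) and 2 paraoxonase genes (Pon2 and Pon3). All 10 were among the 13866 genes listed in the counts, and all 10 were among the 11852 that passed the filter on low counts. They were followed in the brains of 19-day-old mice in which glucocerebrosidase, the lysosomal enzyme lost in Gaucher disease, was blocked by CBE (conduritol B-epoxide), an irreversible inhibitor.

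The wild type (WT) mice were C57BL/6JOlaHsd. In MyTrMaSt null mice 4 genes are deleted, Myd88, Ticam1 (which encodes TRIF), Mavs and Tmem173 (which encodes STING), whose products are adaptors through which pattern recognition receptors signal. Mice of both genotypes received daily intraperitoneal injections of CBE at 100 mg/kg or of PBS from day 8, which gave 3 libraries each of WT + CBE, WT + PBS and MyTrMaSt + PBS and 5 of MyTrMaSt + CBE mice. The strain background of the MyTrMaSt null mice is not given in the labels, so genotype and background cannot be told apart.

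In the brain, apoE is made mainly by astrocytes and, on demand, by microglia, and the particles that carry it are lipidated by the transporter ABCA1 and taken up by receptors on other cells. Clusterin and apolipoprotein D are other glial lipid carriers, and lipoprotein lipase releases fatty acids from triacylglycerol in lipoproteins. Perilipins coat lipid droplets: perilipin 2 is found on droplets in most cell types, perilipin 3 moves to droplets from the cytosol, and perilipin 4 is best known from adipocytes. The paraoxonases are lactonases, of which PON3 associates with high density lipoprotein and PON2 stays inside the cell.

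The libraries held 1290616 to 3704691 counts, read from the 3' ends of transcripts by MARSseq, so that a count follows the number of transcripts and not their length. Levels are given as CPM, the reads of a gene per 1000000 counts, on library sizes scaled by the TMM method. WT + PBS replicate 1 stood apart: its mean correlation with the other libraries of its group was 0.8703, against 0.9231 and 0.9233 for replicates 2 and 3 and at least 0.9555 in the other groups. Reads of the 4 deleted genes were seen in MyTrMaSt mice, with counts of 9 to 22 for Myd88, 10 to 26 for Ticam1, 7 to 30 for Mavs and 17 to 34 for Tmem173. The counts in WT mice were 19 to 71 for Myd88, 10 to 26 for Ticam1, 11 to 31 for Mavs and 1 to 30 for Tmem173, whose WT + PBS libraries (1 to 9) lay below all MyTrMaSt libraries. 3' end counts outside a deleted part do not check a deletion. Xist, transcribed in female cells, had no count in the 3 WT + PBS libraries and 32 to 46 counts in the 3 MyTrMaSt + PBS libraries, while each CBE group mixed libraries with 0 or 1 count and libraries with 18 to 47. Between the PBS groups, sex and genotype cannot be told apart.

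The 5' ends of 4 members are printed here because they belong to the called members with the largest changes, Plin2, Plin4 and Pon3, and to Pon2, the neighbour of Pon3 with a different pattern. Each is a RefSeq window of build GRCm38.p6, reading 5′ to 3′ from 250 bases before the transcription start to 50 bases after it. Capitals mark matches to a motif searched on both strands.
Plin2, chr4:86670010-86670309, minus strand: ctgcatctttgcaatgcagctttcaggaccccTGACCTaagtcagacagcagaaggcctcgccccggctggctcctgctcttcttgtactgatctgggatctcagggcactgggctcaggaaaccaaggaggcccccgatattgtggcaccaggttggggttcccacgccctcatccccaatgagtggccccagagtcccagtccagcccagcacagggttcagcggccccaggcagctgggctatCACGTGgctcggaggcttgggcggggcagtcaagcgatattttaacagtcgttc
Plin4, chr17:56109733-56110032, minus strand: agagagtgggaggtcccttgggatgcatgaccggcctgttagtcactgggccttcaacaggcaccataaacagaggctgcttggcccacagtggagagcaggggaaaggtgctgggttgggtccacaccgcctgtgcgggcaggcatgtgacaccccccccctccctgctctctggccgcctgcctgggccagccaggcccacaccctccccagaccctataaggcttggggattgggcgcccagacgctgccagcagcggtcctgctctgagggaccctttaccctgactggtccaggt
Pon2, chr6:5298291-5298590, minus strand: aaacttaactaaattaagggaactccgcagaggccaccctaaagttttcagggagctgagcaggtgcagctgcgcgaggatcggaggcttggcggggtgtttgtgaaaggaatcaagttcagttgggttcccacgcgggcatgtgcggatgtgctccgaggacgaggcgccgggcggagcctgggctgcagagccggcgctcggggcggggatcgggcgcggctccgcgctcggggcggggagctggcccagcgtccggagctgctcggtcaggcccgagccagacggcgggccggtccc
Pon3, chr6:5256184-5256483, minus strand: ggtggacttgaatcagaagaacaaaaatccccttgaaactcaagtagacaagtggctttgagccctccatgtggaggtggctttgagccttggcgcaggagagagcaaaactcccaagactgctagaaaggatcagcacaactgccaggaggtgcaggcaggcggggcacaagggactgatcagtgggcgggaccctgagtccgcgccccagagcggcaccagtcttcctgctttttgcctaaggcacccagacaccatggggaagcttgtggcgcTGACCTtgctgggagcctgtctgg
The Plin2 window held TGACCT, the reverse complement of the nuclear receptor half-site AGGTCA, beginning 218 bases before the start, and CACGTG, the core of the CLEAR element of lysosomal genes, beginning 4 bases before it. The Pon3 window held TGACCT beginning 26 bases after the start. AGGTCA occurred in 16.3% and CACGTG in 7.15% of 32851 windows. The DR1 and DR4 elements, in which AGGTCA occurs as a direct repeat, were found in 0.0396% and 0.0152% of windows and in none of those of the members. The same was true of TTCNNNGAA (8.3%), an ISRE-like element (3.44%) and ACANNNTGT (6.85%), and TATAAA (13.6%) was found in 1 of 3 Apoe windows. Windows were at hand for 7 of the 10 members, and a match to letters is a description, not a site.

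Most of these genes were higher with CBE in both genotypes. They were chosen with earlier results of these data known. The shares of all genes given beside them are therefore a description and not a test. In WT + CBE versus WT + PBS mice, 7 of the 10 were higher at an adjusted p below 0.05 and none was lower, where 6.7% of all genes tested were higher and 3.89% lower. In MyTrMaSt + CBE versus MyTrMaSt + PBS mice 6 of 10 were higher and none was lower, where 5.32% of all genes were higher and 2.44% lower. Apoc1, Plin2, Plin4 and Pon3 rose at least 2-fold in both genotypes, as did 5.2% of all genes in WT and 3.23% in MyTrMaSt mice. The median log2 fold change of the 10 genes was 1.20 in WT and 0.97 in MyTrMaSt mice, against -0.018 and 0.0052 for all genes. Every CBE library lay above every PBS library for 8 members in WT mice (15.1% of all genes) and for 9 in MyTrMaSt mice (11.8%).

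**Figure D1:**
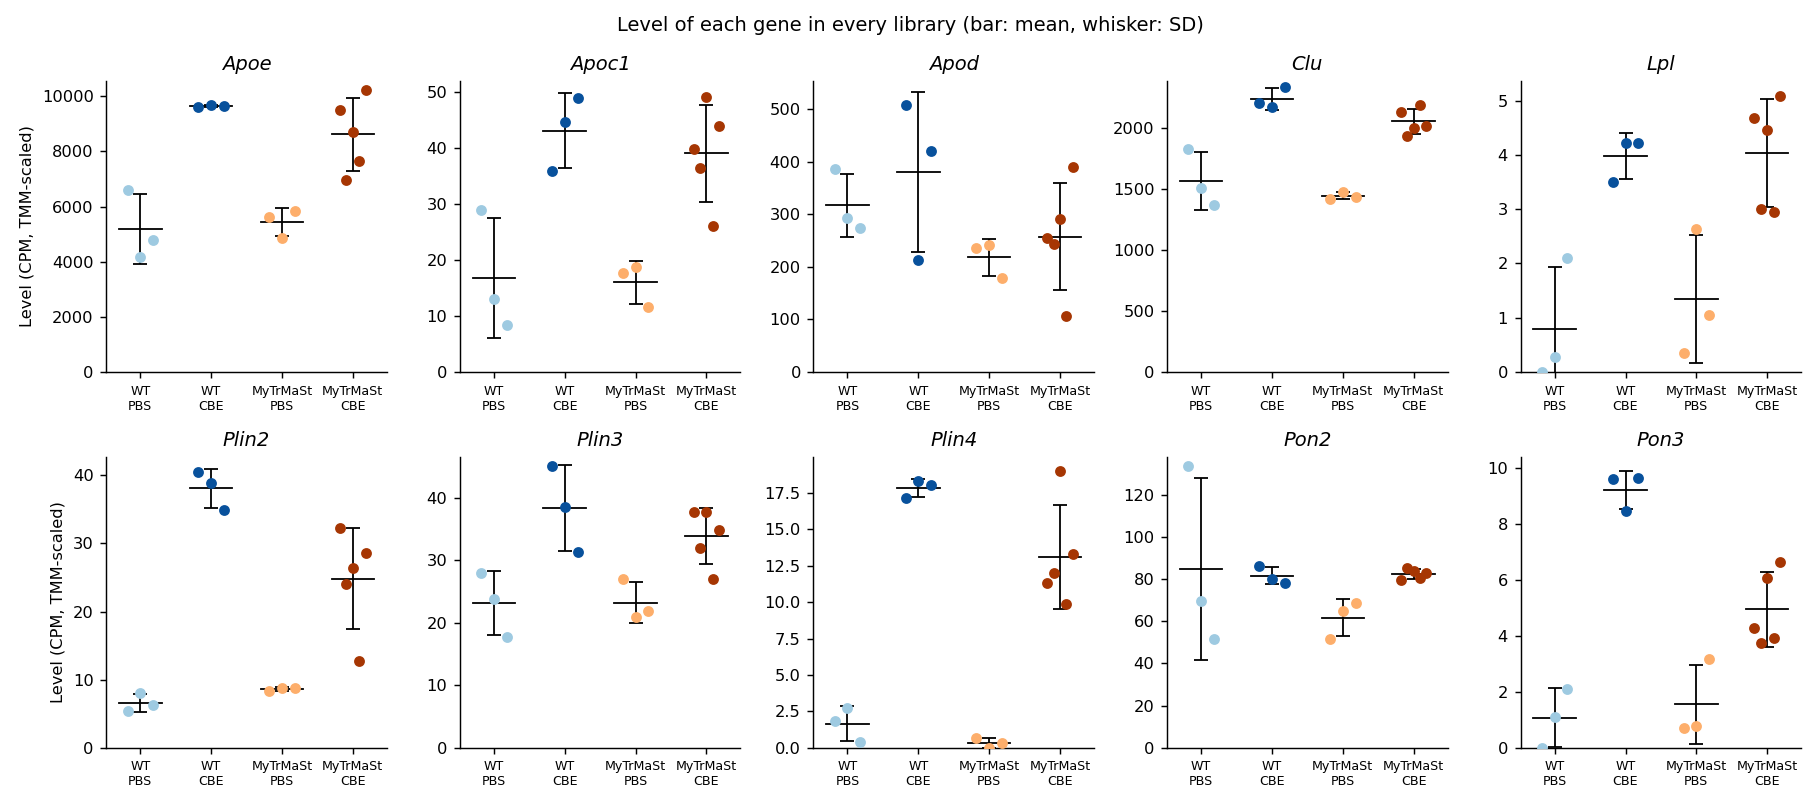
Level of each gene in CPM (vertical axes, linear from 0) in each of the 14 libraries, by group, with the mean (bar) and SD (whisker, cut at 0). The CBE groups sit above the PBS groups for most genes, while Apod and Pon2 overlap in WT mice.

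Apoe was the most abundant member and ranked 2 among the 13866 genes by mean level. It measured 6601, 4169 and 4785 CPM in WT + PBS, 9597, 9679 and 9633 CPM in WT + CBE, 5629, 4865 and 5830 CPM in MyTrMaSt + PBS, and 9515, 6972, 8713, 7643 and 10235 CPM in MyTrMaSt + CBE libraries. The CBE and PBS groups did not overlap in either genotype, and the 3 WT + CBE libraries differed by less than 1 in 100. The spread among them was 0.426% of the mean, below the 0.657% that counting error alone gives. The log2 fold change was 0.89 ± 0.17 (SE) in WT (adjusted p = 0.00159) and 0.66 ± 0.15 in MyTrMaSt mice (adjusted p = 0.0114). The MyTrMaSt call was lost without MyTrMaSt + PBS replicate 2 (adjusted p = 0.0701).

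Apoc1, which lies 3.45 kb from Apoe on chromosome 7 and encodes a small apolipoprotein that inhibits lipoprotein lipase and receptor uptake, was far less abundant. Its levels were 28.9, 13.0 and 8.44 CPM in WT + PBS, 35.8, 44.6 and 48.8 CPM in WT + CBE, 17.6, 18.8 and 11.6 CPM in MyTrMaSt + PBS, and 39.7, 36.4, 49.0, 26.1 and 43.8 CPM in MyTrMaSt + CBE libraries. The highest WT + PBS level was that of replicate 1, the library that stood apart. Apoc1 rose by 1.50 ± 0.33 on the log2 scale in WT (adjusted p = 0.0062) and by 1.28 ± 0.29 in MyTrMaSt mice (adjusted p = 0.00915). Without WT + PBS replicate 1 the WT rise was 1.95, and with only the WT groups in the fit the adjusted p was 0.0924. The MyTrMaSt call was lost without MyTrMaSt + PBS replicate 3 (adjusted p = 0.077). For each 100 counts of Apoe, WT + PBS libraries held 0.176 to 0.438 counts of Apoc1 and WT + CBE libraries 0.373 to 0.507, ranges that overlap.

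Clu, which encodes clusterin (apolipoprotein J), ranked 37 by level and rose by the smallest amount among the genes called. It measured 1830, 1508 and 1366 CPM in WT + PBS, 2209, 2169 and 2336 CPM in WT + CBE, 1422, 1477 and 1433 CPM in MyTrMaSt + PBS, and 1935 to 2190 CPM (median 2017) in MyTrMaSt + CBE libraries. No CBE library fell within the range of the PBS libraries of its genotype. The log2 fold change was 0.51 in both genotypes, with an SE of 0.12 in WT (adjusted p = 0.0119) and 0.11 in MyTrMaSt mice (adjusted p = 0.00873). The WT call was lost with only the WT groups in the fit (adjusted p = 0.142) and the MyTrMaSt call with a replicate block (0.0871).

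Apod, a lipocalin that binds arachidonic acid and other small lipids rather than forming the core of a particle, passed the test in neither genotype. Its levels were 385, 293 and 274 CPM in WT + PBS, 508, 213 and 420 CPM in WT + CBE, 235, 242 and 178 CPM in MyTrMaSt + PBS, and 255, 244, 291, 106 and 389 CPM in MyTrMaSt + CBE libraries. The CBE libraries lay on both sides of the PBS range in both genotypes. The log2 fold change was 0.27, with a 95% interval from -0.45 to 0.98 (adjusted p = 0.69), in WT and 0.23, from -0.41 to 0.88 (adjusted p = 0.686), in MyTrMaSt mice. Apod varied by 39.9% (SD over mean) in WT + CBE and 39.7% in MyTrMaSt + CBE libraries. In each of these groups the lowest Apod level was in the library with 1 or 0 counts of Xist, whereas the 3 WT + PBS libraries, with no Xist count, all lay above the 3 MyTrMaSt + PBS libraries, with 32 to 46.

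Lpl was near the limit of detection. Its counts were 0, 1 and 5 in WT + PBS, then 12, 9 and 7 in WT + CBE, then 1, 10 and 3 in MyTrMaSt + PBS, and 6 to 13 (median 11) in MyTrMaSt + CBE libraries, or 0 to 2.11, 3.49 to 4.22, 0.345 to 2.64 and 2.95 to 5.09 CPM. On the CPM scale no CBE library overlapped the PBS libraries of its genotype. The log2 fold change was 2.14 ± 0.68 in WT (adjusted p = 0.0526) and 1.46 ± 0.51 in MyTrMaSt mice (adjusted p = 0.0869), and neither passed the threshold. With a library left out the WT value ran from 1.46 (without WT + PBS replicate 2) to 3.95 (without WT + PBS replicate 3) and the MyTrMaSt value from 1.06 (without MyTrMaSt + PBS replicate 1) to 2.46 (without MyTrMaSt + PBS replicate 2). The summed counts gave a CBE to PBS ratio of 4.58 in WT (95% interval for counting error 1.86 to 13.5) and 2.77 in MyTrMaSt mice (1.51 to 5.42). The WT difference passed with DESeq2 (adjusted p = 0.0381), with limma voom (0.0249), and without WT + PBS replicate 3 (0.0103), MyTrMaSt + PBS replicate 1 (0.0441) or MyTrMaSt + PBS replicate 2 (0.0418). The MyTrMaSt difference passed without WT + PBS replicate 1 (0.0405) or MyTrMaSt + PBS replicate 2 (0.0406), and with only the MyTrMaSt groups in the fit (0.0445).

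Plin2 was the perilipin gene with the smallest adjusted p in WT mice. It measured 5.41, 8.01 and 6.33 CPM in WT + PBS, 40.4, 39.0 and 34.9 CPM in WT + CBE, 8.29, 8.72 and 8.81 CPM in MyTrMaSt + PBS, and 32.3, 24.0, 26.3, 12.8 and 28.6 CPM in MyTrMaSt + CBE libraries. All 5 MyTrMaSt + CBE libraries lay between the PBS groups and the WT + CBE libraries. Plin2 was upregulated 5.51-fold in WT (log2 2.46 ± 0.29, adjusted p = 8.52e-06) and 2.89-fold in MyTrMaSt mice (log2 1.53 ± 0.25, adjusted p = 0.000693). These calls held with each of the 14 libraries left out in turn.

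Plin3, on chromosome 17, rose less. Its levels were 28.0, 23.8 and 17.7 CPM in WT + PBS, 45.1, 38.5 and 31.3 CPM in WT + CBE, 20.9 to 26.9 CPM in MyTrMaSt + PBS, and 27.1 to 37.8 CPM (median 34.8) in MyTrMaSt + CBE libraries. The groups did not overlap in either genotype, although the gap between the MyTrMaSt groups was only from 26.9 to 27.1 CPM. The log2 fold change was 0.77 ± 0.21 in WT (adjusted p = 0.0272) and 0.55 ± 0.19 in MyTrMaSt mice (adjusted p = 0.0811). The WT call was lost without WT + PBS replicate 3 (adjusted p = 0.105), WT + CBE replicate 1 (0.129) or WT + CBE replicate 2 (0.0757), and with only the WT groups in the fit (0.151). The MyTrMaSt difference passed without WT + PBS replicate 1 (0.025) and with only the MyTrMaSt groups in the fit (0.0339).

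Plin4 rose from very few counts. Its fitted rise was the largest of the 10 genes with all libraries in both genotypes, but in WT mice without WT + PBS replicate 3 it was 2.81 on the log2 scale, below Pon3 (3.42) and Lpl (3.95). It measured 1.80, 2.76 and 0.422 CPM in WT + PBS, 17.2, 18.3 and 18.1 CPM in WT + CBE, 0.691, 0 and 0.352 CPM in MyTrMaSt + PBS, and 11.3, 12.02, 19.0, 9.85 and 13.3 CPM in MyTrMaSt + CBE libraries. The MyTrMaSt + PBS libraries held 3 counts in all and the WT + PBS libraries 13, against 162 and 128 in the CBE groups. The log2 fold change was 3.27 ± 0.43 in WT mice (adjusted p = 3.61e-05). In MyTrMaSt mice the ratio of summed counts was 41.9, with a 95% interval for counting error from 14.1 to 205, and the adjusted p was 4.23e-06. With a library left out, the WT log2 fold change ran from 2.81 (without WT + PBS replicate 3) to 4.28 (without WT + PBS replicate 2), and the fitted MyTrMaSt value ran from 4.53 (without MyTrMaSt + PBS replicate 2) to 6.05 (without MyTrMaSt + PBS replicate 1), with the calls kept. The exons of Plin4 overlap those of Hdgfl2 on the opposite strand by 17 bases, and reads from the overlap could not be assigned without strand.

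The make-up of the perilipin counts differed between the groups. For each 100 counts of Plin3 there were 19.4 to 35.7 of Plin2 in WT + PBS and 89.7 to 112 in WT + CBE libraries, and 30.8 to 41.8 and 47.3 to 85.6 in the MyTrMaSt groups. Plin4 went from 2.38 to 11.6 per 100 counts of Plin3 in WT + PBS to 38.1 to 57.7 in WT + CBE libraries, and from 0 to 2.56 to 29.9 to 50.5 in the MyTrMaSt groups. In neither genotype did the CBE and PBS ranges of these ratios overlap.

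The paraoxonase genes, 7.86 kb apart on chromosome 6, did not move alike. Pon3 counts were 0, 4 and 5 in WT + PBS, then 33, 18 and 16 in WT + CBE, then 2, 3 and 9 in MyTrMaSt + PBS, and 8 to 17 (median 11) in MyTrMaSt + CBE libraries. On the CPM scale these were 0, 1.11 and 2.11, then 9.60, 8.45 and 9.64, then 0.691, 0.793 and 3.17, and last 4.29, 3.76, 6.08, 3.94 and 6.65. The CBE libraries lay above the PBS libraries in both genotypes, and all MyTrMaSt + CBE libraries lay below all WT + CBE libraries. Pon3 rose by 2.83 ± 0.52 on the log2 scale in WT (adjusted p = 0.00123) and by 1.71 ± 0.46 in MyTrMaSt mice (adjusted p = 0.0305). The WT rise was 3.42 without WT + PBS replicate 3 and the MyTrMaSt rise 2.66 without MyTrMaSt + PBS replicate 3. The MyTrMaSt call was lost without MyTrMaSt + PBS replicate 1 (adjusted p = 0.128), MyTrMaSt + PBS replicate 2 (0.159), MyTrMaSt + CBE replicate 3 (0.0661) or MyTrMaSt + CBE replicate 5 (0.07).

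Pon2 measured 134, 69.6 and 51.5 CPM in WT + PBS, 86.1, 80.3 and 78.3 CPM in WT + CBE, 51.8, 65.0 and 68.7 CPM in MyTrMaSt + PBS, and 79.5 to 85.2 CPM (median 83.0) in MyTrMaSt + CBE libraries. WT + PBS replicate 1 held the highest level of all 14 libraries, and the other 13 show CBE above PBS in both genotypes. With all libraries the log2 fold change was -0.01, with a 95% interval from -0.52 to 0.50 (adjusted p = 0.986), in WT and 0.41, from -0.04 to 0.87 (adjusted p = 0.253), in MyTrMaSt mice. Without WT + PBS replicate 1 it was 0.43 in WT (adjusted p = 0.0743) and 0.42 in MyTrMaSt mice (adjusted p = 0.0211), where it also passed with only the MyTrMaSt groups in the fit (0.0336). For each 100 counts of Pon2 there were 0 to 4.10 of Pon3 in WT + PBS and 10.5 to 12.3 in WT + CBE libraries, against 1.22 to 4.62 and 4.41 to 8.02 in the MyTrMaSt groups, whose ranges overlap.

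**Figure D2:**
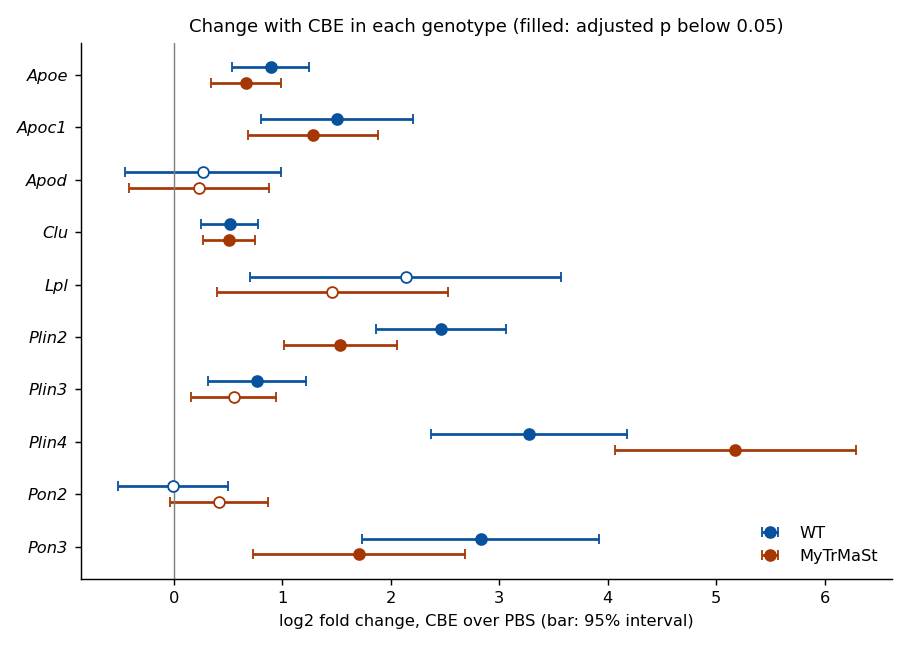
Log2 fold change of CBE over PBS (horizontal axis) with its 95% interval for each gene in WT (blue) and MyTrMaSt (brown) mice, where filled points have an adjusted p below 0.05. Plin4, Pon3 and Plin2 have the largest values in WT mice, and the intervals of Apod and Pon2 include 0 in both genotypes.

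Leaving out WT + PBS replicate 1 kept the same 7 calls in WT mice (12.6% of all genes called). It raised the calls in MyTrMaSt mice from 6 to 9, adding Lpl, Plin3 and Pon2, while the calls over all genes rose from 7.75% to 18.6%. All groups share the estimate of spread, so this WT library also entered the MyTrMaSt tests. The MyTrMaSt change of Plin3 went from 0.551 to 0.560 and its SE from 0.187 to 0.169. For Pon2 the change went from 0.415 to 0.421 and the SE from 0.214 to 0.123. With the Xist level of each library in the model, 4 members stayed called in WT mice (Apoe, Plin2, Plin4 and Pon3). The other 3 had log2 fold changes of 1.26 for Apoc1 (adjusted p = 0.09), 0.55 for Clu (0.065) and 0.63 for Plin3 (0.222), against 1.50, 0.51 and 0.77 without Xist. In MyTrMaSt mice all 6 calls stayed.

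Whether the CBE response differed between genotypes was tested by the interaction, the change in MyTrMaSt minus the change in WT mice. None of the 10 members passed with edgeR, DESeq2 or limma voom, where 0.489% of all genes passed with edgeR. At an unadjusted p below 0.05 there were 2 members, Plin2 and Plin4, where 12.5% of all genes were below it. The Plin2 interaction was -0.93 on the log2 scale (95% interval -1.74 to -0.12, adjusted p = 0.35), and -0.50 with Xist in the model (adjusted p = 0.802), and Plin4 had a positive interaction (1.90, 0.10 to 3.70, adjusted p = 0.38). The Plin4 interaction was 0.90 without WT + PBS replicate 2 and 2.76 without MyTrMaSt + PBS replicate 1. The interval for Pon3 ran from -2.74 to 0.49 around -1.12, which moved to -0.18 without MyTrMaSt + PBS replicate 3. For Apoe it ran from -0.70 to 0.24 and for Clu from -0.35 to 0.35, so a difference of 2-fold between genotypes lies outside both. It also lies outside those of Plin3 (-0.81 to 0.38) and, only just, Apod (-0.99 to 0.93). The intervals of Apoc1 (-1.14 to 0.70), Lpl (-2.55 to 1.19) and Pon2 (-0.25 to 1.10) include a 2-fold difference. Without WT + PBS replicate 1 the Apoe interaction moved from -0.23 to -0.45 ± 0.17 (adjusted p = 0.308).

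Between the CBE groups, none of the 10 members passed with any of these tools, where 2.54% of all genes passed with edgeR, and 2 members had an unadjusted p below 0.05 (8.06% of all genes). These were Plin2, lower in MyTrMaSt + CBE mice by a log2 difference of -0.61 (95% interval -1.06 to -0.17, adjusted p = 0.232), and Pon3, at -0.89 (-1.63 to -0.15, adjusted p = 0.391). They were also the 2 members whose CBE groups did not overlap, as for 9.96% of all genes. Apoe differed by -0.16 (-0.48 to 0.15) and Plin4 by -0.44 (-1.02 to 0.14).

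**Figure D3:**
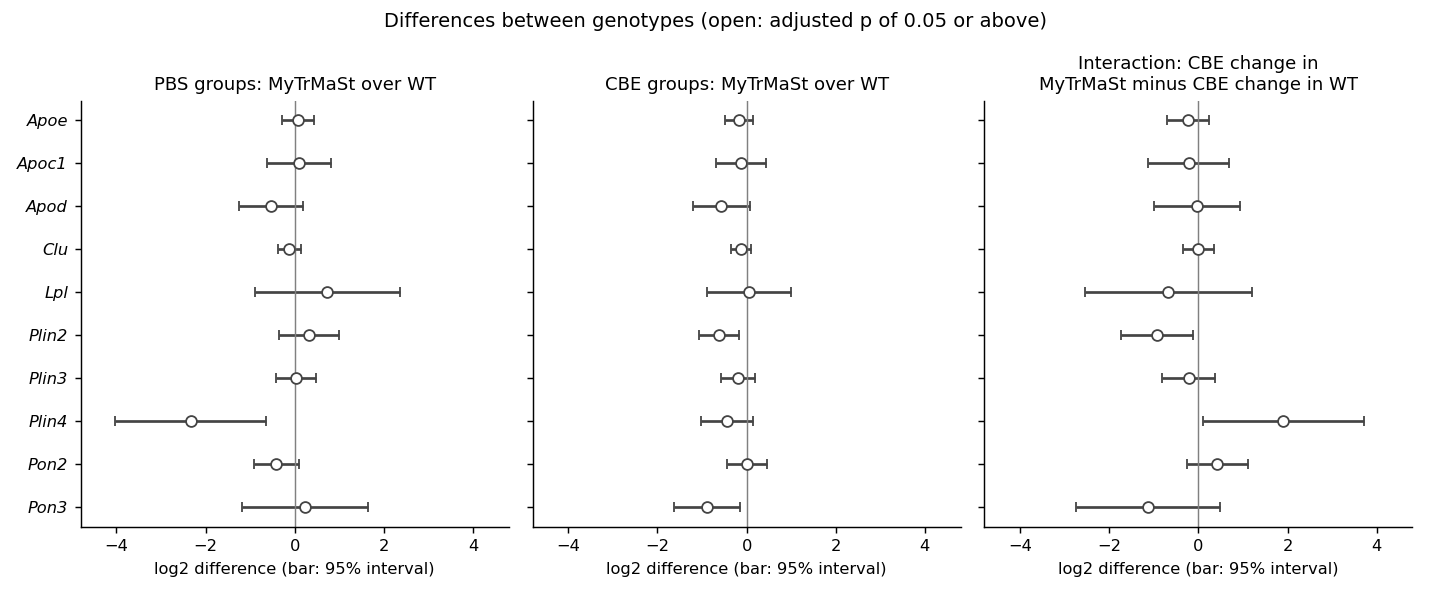
Log2 differences between genotypes (horizontal axes) with 95% intervals for each gene between the PBS groups, between the CBE groups and for the interaction. All points are open, since none had an adjusted p below 0.05, and the intervals of Plin4 (PBS groups, interaction), Plin2 (CBE groups, interaction) and Pon3 (CBE groups) exclude 0.

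Between the PBS groups, none of the 10 members passed with any of these tools, where 0.186% of all genes passed with edgeR, and 1 member, Plin4, had an unadjusted p below 0.05 (16.8% of all genes). Its fitted log2 difference was -2.34 (95% interval -4.04 to -0.63, adjusted p = 0.175), from 3 counts in all in MyTrMaSt + PBS and 13 in WT + PBS libraries, whose CPM ranges overlap. It was -1.33 without WT + PBS replicate 2 and -3.20 without MyTrMaSt + PBS replicate 1. The groups did not overlap for Apod, lower in MyTrMaSt + PBS mice, and Plin2, higher, as for 20.2% of all genes. Plin3 and Plin4 lie 0.689 kb and 160 kb from Ticam1, a gene deleted in the MyTrMaSt mice.

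MyTrMaSt + CBE replicate 4, with no Xist count, had the lowest level of its group for 6 of the 10 members (Apoc1, Apod, Lpl, Plin2, Plin3 and Plin4). This library also had the fewest counts of its group (2129161). Its mean correlation with the rest of the group was 0.9555, against 0.9679 to 0.9708 for the other libraries. Without it the Plin2 difference between the CBE groups was -0.46 and the interaction -0.77.

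Other genes were read from 8 lists with 90 genes tested, 6 lists of lipoprotein and droplet biology and 1 each of PPAR targets (13 tested) and glucocorticoid-induced genes (12 tested). Of the 90, 15 were higher and 5 lower with CBE in WT mice (22.2% called, against 10.6% of all genes) and 17 were higher and 2 lower in MyTrMaSt mice (21.1%, against 7.75%). Their median log2 fold change was 0.056 in WT and 0.24 in MyTrMaSt mice. Without WT + PBS replicate 1, of 91 tested, 23 were higher and 3 lower in WT mice and 27 were higher and 4 lower in MyTrMaSt mice. With Xist in the model 9 were higher and 3 lower in WT mice, where calls lost included those of Dusp1 (adjusted p = 0.251), Sult1a1 (0.221), Abca1 (0.111), Abcg1 (0.0588), Lipa (0.172), Mylip (0.0526), Fabp3 (0.0591), Abca7 (0.064), Agpat1 (0.18) and Apobr (0.109), and 14 were higher and 2 lower in MyTrMaSt mice, where those of Agpat2 (0.0814), Mgll (0.0528) and Lrpap1 (0.0737) were lost. The interaction was passed by 0 of the 90 genes with edgeR, DESeq2 and limma voom, where 20 had an unadjusted p below 0.05 with edgeR (12.5% of all genes did), and by 1, Lcat, with Xist in the model.

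Of the other apolipoprotein genes and their processing and uptake factors, 5 were tested, and 3 rose in WT and 2 in MyTrMaSt mice. Apoa2 was the 1 apolipoprotein gene among them and was not called, at -0.57 in WT (adjusted p = 0.509) and -0.28 in MyTrMaSt mice (0.757). Apobec1, the cytidine deaminase that edits Apob mRNA, rose by 3.67 in WT and 1.85 in MyTrMaSt mice on the log2 scale, and Apobec3, an antiviral deaminase, by 2.73 and 1.36, where the MyTrMaSt call was lost without MyTrMaSt + PBS replicate 2 (adjusted p = 0.0611) or 3 (0.0647). Both were lower in MyTrMaSt + CBE than in WT + CBE mice (-1.85 and -1.63). Apobr, a receptor for apoB-containing particles, rose by 1.93 in WT mice and measured 1.17 (adjusted p = 0.0666) in MyTrMaSt mice.

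Of 13 lipoprotein and scavenger receptor genes and their regulators, 1 rose and 1 fell in WT mice and 2 rose and 1 fell in MyTrMaSt mice. In both genotypes the fall was at least 2-fold and no rise was. Mylip, which encodes a ubiquitin ligase that degrades lipoprotein receptors, rose by 0.96 on the log2 scale in WT mice. Lrp1, a large apoE receptor, rose by 0.73 and its chaperone Lrpap1 by 0.46 in MyTrMaSt mice, a call lost in 6 of the 14 fits with 1 library left out (adjusted p up to 0.145).

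Of 14 genes of sterol efflux and transfer, 3 rose and 1 fell in WT mice and 1 rose and 1 fell in MyTrMaSt mice. Ch25h, which makes 25-hydroxycholesterol, rose by 4.30 and 3.65 on the log2 scale. Abca1, the exporter that lipidates apoE, rose by 1.43 in WT mice (adjusted p = 0.0091) and measured 0.91 in MyTrMaSt mice (adjusted p = 0.0682). Abcg1, another sterol exporter, rose by 0.90 in WT mice, a call lost without WT + PBS replicate 3 (adjusted p = 0.051), WT + CBE replicate 2 (0.0715) or WT + CBE replicate 3 (0.0954). Abca7 fell by 0.98 in WT mice, a call lost in 8 of the 14 fits with 1 library left out (adjusted p up to 0.171). Cyp27a1, a sterol hydroxylase, fell by 1.11 in MyTrMaSt mice, which did not pass without MyTrMaSt + PBS replicate 3 (adjusted p = 0.0642).

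Of 11 lipases, partners and inhibitors, 2 rose in WT and 3 in MyTrMaSt mice, and none fell. Angptl4, an inhibitor of lipoprotein lipase, rose by 2.32 in WT (adjusted p = 1.99e-05) and by 1.83 in MyTrMaSt mice (adjusted p = 0.000221). Lipa, the lysosomal acid lipase, rose by 1.01 in WT mice and measured -0.0024 in MyTrMaSt mice, a difference that did not pass (interaction -1.01, adjusted p = 0.246). The WT call was lost without WT + PBS replicate 3 (0.0524) or WT + CBE replicate 3 (0.08). Pnpla2, the droplet lipase ATGL, rose by 1.37 in MyTrMaSt mice and measured 0.71 (adjusted p = 0.138) in WT mice. Mgll rose by 0.77 in MyTrMaSt mice, a call lost in 11 of the 14 fits with 1 library left out (adjusted p up to 0.224).

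Of 10 other droplet proteins tested, none was called in WT mice by edgeR, DESeq2 or limma voom, with 5 at an unadjusted p below 0.05 (24.7% of all genes), and their median lay at -0.29 on the log2 scale. Without WT + PBS replicate 1 the median was -0.087 and 1 was called higher. In MyTrMaSt mice the median was 0.23 and 1 rose, Hilpda (0.67), an inhibitor of ATGL, whose call was lost without MyTrMaSt + PBS replicate 2 (adjusted p = 0.14), MyTrMaSt + PBS replicate 3 (0.134) or MyTrMaSt + CBE replicate 5 (0.0684). Of 12 genes of triacylglycerol and cholesterol ester synthesis, Gpam, the acyltransferase of the first step, rose by 2.15 in WT mice (2.82 without WT + PBS replicate 2). Agpat1 fell by 0.75 in WT and Agpat2 rose by 1.84 in MyTrMaSt mice, calls that were lost in 11 and 10 of the 14 fits with 1 library left out (adjusted p up to 0.184 and 0.192).

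The lists of PPAR and glucocorticoid targets were read because both receptors act on perilipin genes in other tissues. Of 13 other PPAR targets 1 rose and 1 fell in WT mice and 2 rose in MyTrMaSt mice, among them Ucp2 (1.64 and 1.54) and Fabp3 (-0.95 in WT). The Fabp3 call was lost without WT + PBS replicate 1 (adjusted p = 0.0524), WT + CBE replicate 2 (0.0668) or WT + CBE replicate 3 (0.093). Of 12 glucocorticoid-induced genes 4 rose and 1 fell in WT mice and 5 rose in MyTrMaSt mice. Fkbp5 rose by 1.79 and 2.07 and Sgk1 by 1.30 and 1.57. Cdkn1a rose by 1.92 and 2.12, but MyTrMaSt + CBE replicate 4 held 613 CPM against a median of 141 CPM in its group, and without it the MyTrMaSt rise was 1.45 (adjusted p = 0.00528). The Cdkn1a calls were lost without WT + CBE replicate 2 (adjusted p = 0.0629) or 3 (0.0563) in WT mice and without MyTrMaSt + PBS replicate 1 (0.0506) or 2 (0.0517) in MyTrMaSt mice.

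**Figure D4:**
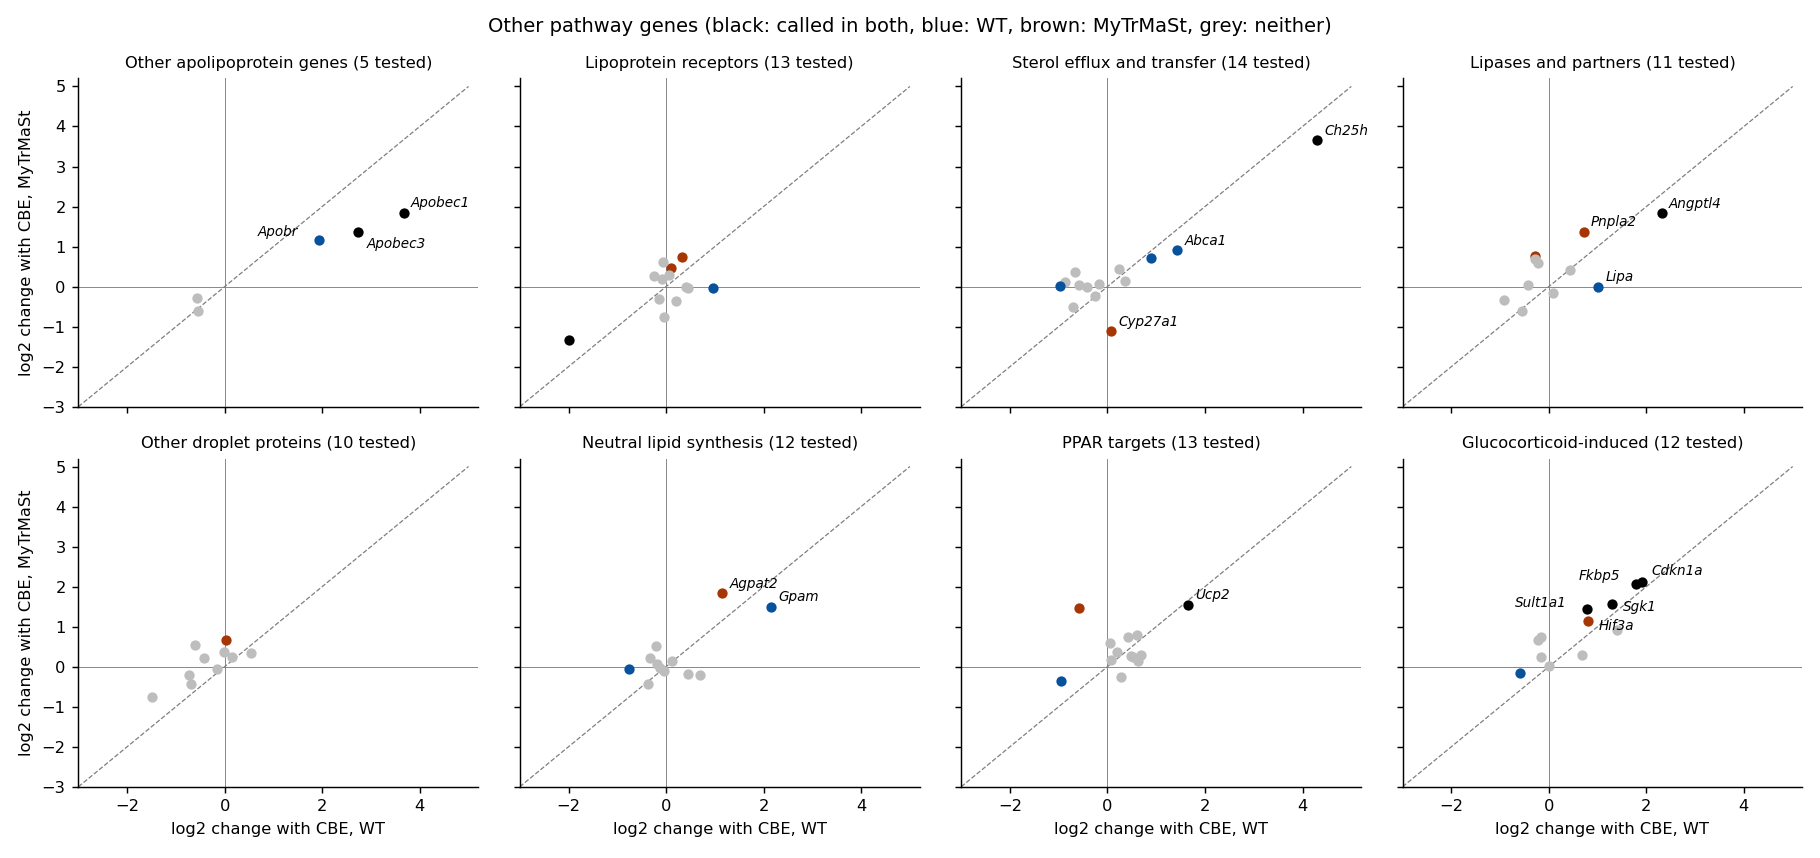
Log2 change with CBE in WT (horizontal axes) and MyTrMaSt mice (vertical axes) for the genes of the 8 lists, 1 point per gene, with names for most of those called with at least a 2-fold change and a dashed line where both are equal. Ch25h, Angptl4 and Ucp2 lie high in both genotypes.

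Most markers of microglia and of reactive astrocytes rose with CBE, as most of the members did. Of 13 microglial markers 10 rose in WT and 9 in MyTrMaSt mice, and their summed level was 645 to 923 CPM in WT + PBS, 3283 to 3784 CPM in WT + CBE, 549.8 to 603 CPM in MyTrMaSt + PBS and 1863 to 2083 CPM in MyTrMaSt + CBE libraries. Of 14 markers of reactive microglia tested, 13 and 12 rose. Trem2, an apoE-binding receptor of microglia, rose by 2.60 and 3.15 on the log2 scale and was lower in MyTrMaSt than in WT mice under both treatments (-1.29 in PBS, adjusted p = 0.0114, and -0.74 in CBE, adjusted p = 0.0102). The PBS difference did not pass with Xist in the model (adjusted p = 0.201) or without MyTrMaSt + PBS replicate 1 (0.0774) or 2 (0.0802), nor the CBE difference without WT + CBE replicate 1 (0.0784). Tmem119, a marker of homeostatic microglia, measured 0.78 in WT (adjusted p = 0.0762) and 0.28 in MyTrMaSt mice (adjusted p = 0.524).

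All 8 markers of reactive astrocytes rose in both genotypes, and their sum went from 204 to 227 CPM in WT + PBS to 3445 to 4121 CPM in WT + CBE, and from 232 to 275 to 1496 to 1961 CPM in the MyTrMaSt groups. Gfap, the astrocyte intermediate filament, rose by 3.31 in both (3.92 in WT without WT + PBS replicate 1). Of 10 general astrocyte markers 4 and 3 rose, with sums of 3253 to 3666, 4043 to 4276, 3495 to 3933 and 4337 to 4693 CPM. Without WT + PBS replicate 1 there were 6 and 8 of these that rose, and with Xist in the model 2 and 3. Aldh1l1 measured 0.65 in WT mice (adjusted p = 0.0583) and rose by 0.87 in MyTrMaSt mice, a call lost without MyTrMaSt + PBS replicate 1 (adjusted p = 0.0556).

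The other lists moved less or fell. Of 11 oligodendrocyte markers 5 fell in WT mice, among them Mbp (by 0.68), and 1 rose in MyTrMaSt mice, and of 10 neuronal markers 3 and 1 fell. Without WT + PBS replicate 1 there were 6 oligodendrocyte markers that fell in WT mice, and 4 that fell and 1 that rose in MyTrMaSt mice, and 4 neuronal markers fell in WT mice and 3 fell and 1 rose in MyTrMaSt mice. With Xist in the model the WT calls of the neuronal markers Nefl (adjusted p = 0.252), Slc17a7 (0.153) and Thy1 (0.154) were lost, and Slc17a7 was also lost without WT + PBS replicate 1 (0.109). The Mbp call was lost without WT + CBE replicate 2 (0.0879) or 3 (0.0629). Endothelial markers (7 tested) had 1 lower in WT, and 1 higher and 1 lower in MyTrMaSt mice, and 1 of 8 mural and fibroblast markers fell in each genotype. Of 8 choroid plexus markers 1 fell in MyTrMaSt mice, where Ttr measured -0.39 (adjusted p = 0.389). Of 10 blood cell markers 3 were listed, with sums of 11.6 to 25.3 CPM over all libraries. In whole tissue, more cells of a type and more RNA per cell cannot be told apart, and the part of the glial markers in the levels of the members was not tested.

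**Figure D5:**
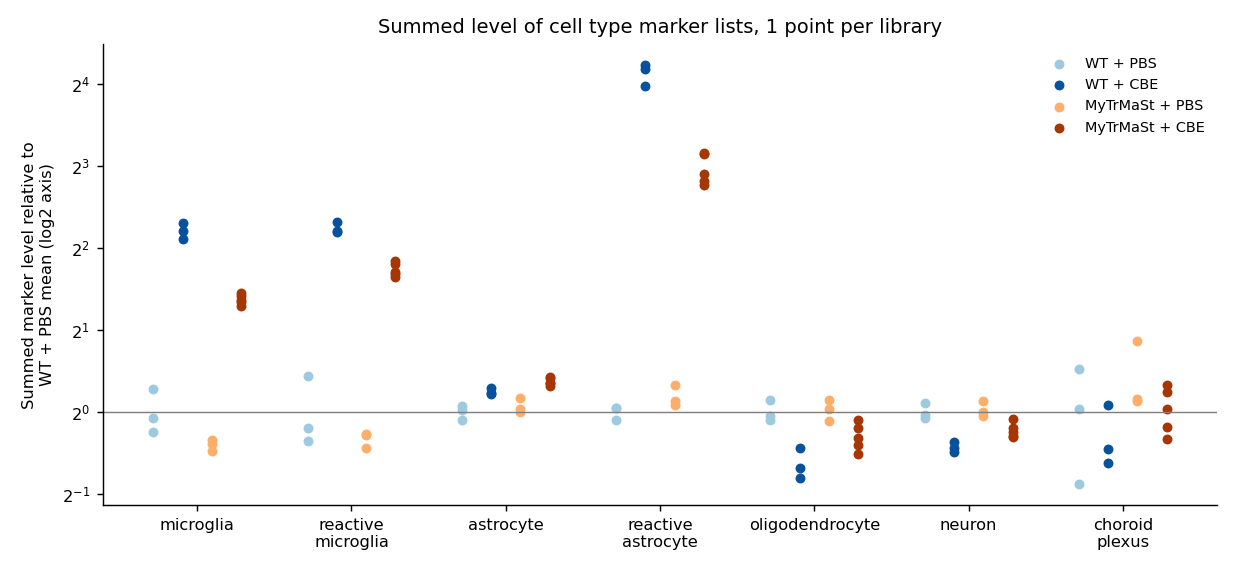
Summed level of each marker list in each library, relative to the WT + PBS mean (vertical axis, log2 scale), with 1 point per library and colours for the 4 groups. The microglial and reactive lists are higher in both CBE groups, with the MyTrMaSt + CBE libraries between the PBS groups and WT + CBE.

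Across the 14 libraries, the genes whose log2 level followed that of each member changed at least 2-fold were found by Pearson's r, given as a description over 4 shared groups. Plin2 was closest to Neat1 (r = 0.9749), a nuclear long noncoding RNA, then Apbb1ip (0.9611) and Spp1 (0.9601), the osteopontin gene. Plin4 was closest to Ptpn6 (0.961), Trem2 (0.9555) and Matn2 (0.9528), and Pon3 to Abca1 (0.9557), Itgam (0.9542) and Msn (0.9493). Apoc1 was closest to Lgi4 (0.9408), Cyth4 (0.9323) and Dhrs3 (0.9297).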

How the data were processed

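RNA from mouse brains was sequenced by the authors as bulk MARSseq libraries, mapped to mm10 with hisat 0.1.6 and restricted to uniquely mapping reads. The submitters' processing notes also name cutadapt and HTSeq. The annotation, the strand setting and the use of molecular identifiers are not given in the sources used here. The deposited values used are whole read counts per gene, as the authors gave them. A normalized table (counts divided by 1 factor per library) and the authors' table of fold changes and p values per genotype were not used.

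Counts of 14 libraries, grouped by the labels, were fitted with edgeR 4.0.16 in R 4.3.3: filterByExpr on the 4 groups (11852 of 13866 genes), TMM factors, 4 group means and quasi-likelihood F tests, with Benjamini-Hochberg adjustment over all genes tested. A gene was called at an adjusted p below 0.05. Nothing in the labels ties libraries to litters or days, and p values measure the spread between these samples. That spread was estimated over all 4 groups together, so each test also carries the spread of groups it does not compare. When changes were simulated for WT + CBE versus WT + PBS, 8% of 1.5-fold, 46% of 2-fold and 94% of 4-fold changes were recovered. For MyTrMaSt + CBE versus MyTrMaSt + PBS these shares were 14%, 54% and 94%. A gene that was not called may therefore still have changed by 2-fold or less. Recovery is not given here for the interaction or for comparisons between genotypes. Intervals of count ratios are exact and cover counting error only.

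The members and lists were chosen with earlier results of these data known. Genes named are the 10 members, genes of 8 pathway lists called at least 2-fold in either genotype, reference genes (Abca1, Trem2, Gfap, Tmem119, Aldh1l1, Mbp, Ttr and Angptl4), the deleted genes, Xist and the 3 genes most like each member changed at least 2-fold (mean log2 CPM of at least 3). Mylip, Lrp1, Lrpap1, Abcg1, Abca7, Hilpda, Agpat1 and Fabp3 were called below 2-fold, and these, Apoa2, Dusp1, Mgll, Lcat, Nefl, Slc17a7 and Thy1 were named after their values were seen. Some genes that this rule names are not reported here. Alternatives were RLE and upper-quartile factors, DESeq2 1.42.0, limma 3.58.1 voom, other filters, only the groups compared, a replicate block, Xist as a covariate, a 2-fold threshold and leaving out each library. Counts of lists without WT + PBS replicate 1, with Xist, or by the other tools, and fits of list genes with each library left out, were added after seeing the data. Gene positions come from GENCODE M21 (GRCm38).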

Additional observations from a re-analysis of the deposited data

How the results depend on the processing

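The 7 calls in WT and 6 in MyTrMaSt mice were 7 and 6 with RLE or upper-quartile factors and with no filter, and 8 and 6 with DESeq2 or limma voom. In WT mice 4 were called with at least 10 counts in every library (6 members tested), with only the groups compared (9 tested, without Apoc1, Clu and Plin3, adjusted p = 0.0924, 0.142 and 0.151), with Xist as a covariate, and with a 2-fold threshold. In MyTrMaSt mice 3 of 6 tested were called with at least 10 counts, and 9 with only the groups compared. The share of all genes called under each of these settings is not given here. Such a share can move too, as from 7.75% to 18.6% in MyTrMaSt mice without WT + PBS replicate 1. Leaving out 1 library gave 6 to 8 in WT and 5 to 9 in MyTrMaSt mice, and 0 for the interaction and between genotypes. Replicate numbers did not pair the libraries: 3 of 18 same-numbered pairs had deviations correlated above 0.1 (range -0.172 to 0.165). With a replicate block 7 members were called in WT and 4 in MyTrMaSt mice, where Clu (adjusted p = 0.0871) and Pon3 (0.103) were lost, and 0 elsewhere.

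Signs turned only where the test was not passed. The WT change of Pon2 was 0.035 with upper-quartile factors, 0.15 with voom, 0.086 with at least 10 counts, 0.0067 with the replicate block and -0.27 to 0.43 with a library left out. With Xist, Apod was -0.83 in WT mice, the interactions of Apod and Apoc1 were 1.28 and 0.077, and the PBS differences of Apoc1, Plin2 and Plin3 were -0.21, -0.14 and -0.15. The Apod interaction was 0.032 with the replicate block, and the Pon2 difference between CBE groups -0.0082 with at least 10 counts. With a library left out, interactions ran from -0.0093 to 0.69 (Pon2), -0.32 to 0.22 (Apod), -0.13 to 0.089 (Clu), -2.48 to 0.32 (Lpl) and -0.67 to 0.11 (Apoc1). Differences between CBE groups ran from -0.064 to 0.15 (Lpl) and -0.017 to 0.048 (Pon2). Differences between PBS groups ran from -0.68 to 0.00996 (Pon2), -0.72 to 0.81 (Pon3), -0.068 to 0.27 (Apoe), -0.24 to 0.54 (Apoc1), -0.14 to 0.13 (Plin3) and -0.27 to 2.53 (Lpl). The cause was not tested. Depth limits Lpl, Plin4 and Pon3, whose PBS groups held 3 to 14 counts in all.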

Other observations

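Of 39 tested genes within 1 Mb of Ticam1, 11 differed between the PBS groups at an unadjusted p below 0.05 (28.2%, against 16.8% of all genes), 1 higher and 10 lower in MyTrMaSt + PBS mice, and none passed the adjusted threshold with edgeR. Plin4 was among the lower ones and Plin3 was not among the 11. Between the CBE groups 4 of the 39 had an unadjusted p below 0.05 (10.3%, against 8.06%), all lower, of which 2 passed the adjusted threshold, and neither Plin3 nor Plin4 was among them. This window was chosen after the data were seen.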
